A study of Citrus unshiu with 2 samples.

Results

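The short stretches of promoter where CHG methylation differed between shoots of water-deprived and normally watered satsuma mandarin trees were described here. The authors' deposited CHG table lists 3250 differentially methylated regions, and the 451 whose assigned gene features include a promoter were taken, each counted once. They hit the promoters of 468 genes, all of them listed in both libraries, out of 29073 genes with levels in both. The regions were chosen by their CHG difference and their position, so their direction and size are a description of the choice and not a test.

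In plants, cytosines are methylated next to a G (CG), 1 base further from it (CHG) or without one (CHH); H stands for A, C or T. CHG methylation is kept up by chromomethylases, which bind nucleosomes carrying methylated histone H3 lysine 9, so that it usually marks silenced transposons and repeats. CG methylation is copied at replication by MET1 and also occurs alone in the bodies of many expressed genes. CHH methylation is set anew by RNA-directed DNA methylation, which often acts at the edges of transposons near genes, and by CMT2 inside long transposons. A promoter with CHG methylation therefore often holds or borders a repeat.

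The material was shoots (mature stems) of Citrus unshiu. Trees in a rain-proof tunnel were kept under normal water or under light drought, in which the soil was left to dry to about 15% moisture over a treatment of 75 days; 20 trees were assigned to each condition. Whole-genome bisulfite sequencing gave 1 library per condition, and the sources used here do not say how many trees went into each. With 1 library per group no spread between replicates exists, no test between conditions was made, and every difference compares these 2 libraries. The read depth is unknown, so no interval on a level was computed. Every difference given is the drought level minus the normal one, in percentage points. An SD describes the spread between genes, and genes do not stand in for replicates.

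Most of the promoter regions were higher in CHG under light drought. Of the 451, 293 were higher and 158 lower, or 64.97% higher. This share is near that of the other 2799 CHG regions, of which 61.02% were higher. Their medians were 17.5 points for higher and -16.7 points for lower regions. In CHG regions of downstream flanks without a promoter the share was 64.3%, and in CG regions of promoters 63.7%, so the lean is not particular to the promoter CHG regions. In the promoter CHG regions the median difference was 18.3 points among the higher ones, with quartiles of 13.2 and 24.7 points. Among the lower ones it was -17.5 points, with quartiles of -23.1 and -12.7 points. Higher and lower regions thus differed in number more than in size. Differences of 10 to 20 points were the most frequent, with 218 regions. There were 128 regions of 20 to 30 points, 35 of 30 to 40 points and 16 of 40 points or more. Among these 16, 12 were higher and 4 lower. The smallest difference in the authors' deposited table was 0.242 points, on chromosome 7 at 26831904 to 26832016, with a listed p-value of 0.0433. In the authors' deposited table the largest p-value among the 451 regions was 0.0473, and 427 of them have a corrected p-value of 1.

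The regions were short. The median length was 109 bp, with quartiles of 85.5 and 147 bp and a range of 18 to 330 bp, and together they covered 53787 bp. The higher regions had a median of 111 bp and the lower ones of 106 bp. In 257 regions, or 57.0%, there were exactly 10 CHG cytosines, the smallest number in the table. The longest region in the authors' deposited table was on chromosome 5 at 9597054 to 9597383, with 24 cytosines and a difference of 26.1 points. The largest number of cytosines was 37, in a region of 15.3 points on chromosome 5 at 12847171 to 12847460 in the authors' deposited table, shared by the promoters of neighbouring genes. Regions under 50 bp were higher in 16 of 24 cases, those of 50 to 100 bp in 99 of 163, those of 100 to 150 bp in 105 of 159, those of 150 to 200 bp in 45 of 67 and longer ones in 28 of 38. The other CHG regions had a median length of 106 bp and the promoter regions one of 109 bp.

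**Figure D1:**
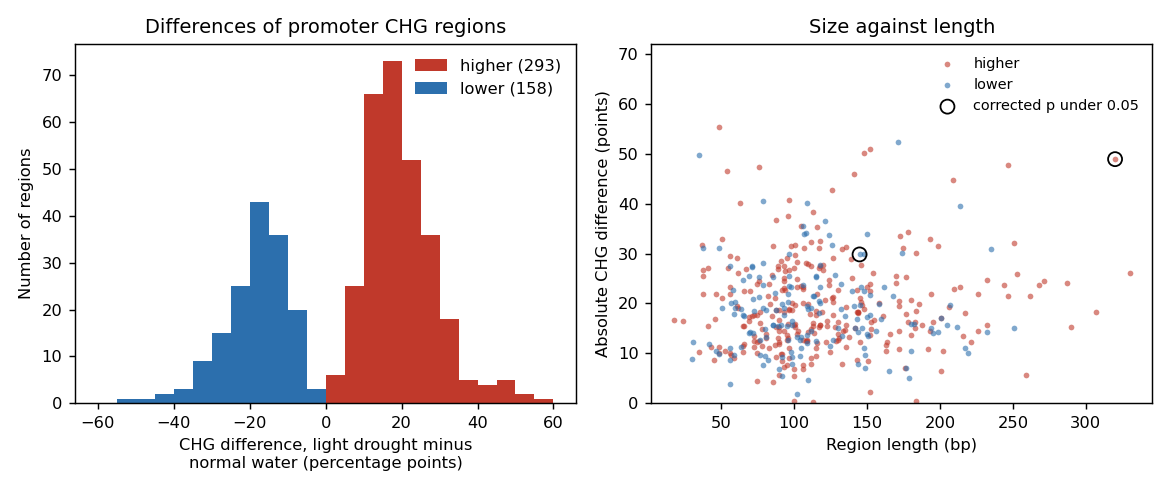
Left, number of promoter CHG regions by difference in level (light drought minus normal water, percentage points, bins of 5 points), with the 293 higher regions in red and the 158 lower in blue. Right, absolute difference against region length in bp for the same regions; the black circles mark the 2 regions with a corrected p-value under 0.05, and large differences occur at short and long lengths alike.

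Most regions lay wholly in a promoter. That was so for 374 regions, or 82.9%, while 40 regions had less than 50% of their length in the promoter, down to an overlap of 2 bp. A promoter was the only feature for 395 regions, of which 252 were higher and 143 lower. Of the 40 regions that also reached an exon, 27 were higher and 13 lower. Of the 11 that reached a 5' UTR, 8 were higher and 3 lower. All 5 regions that also lie in a downstream flank were higher, with a median difference of 30.9 points. Most regions, 405, hit the promoter of 1 gene, 44 hit those of 2 genes and 2 hit those of 3 genes, so some genes below share a region.

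All chromosomes carried such regions. On chromosome 8, 24 of 29 promoter regions were higher, whereas on chromosome 1 the split was even, with 21 higher and 20 lower. The share of higher regions on the other 7 numbered chromosomes lay between 62.5% and 69.6%, and it was 62.5% for the 96 regions of the unplaced sequence. Among CHG regions outside promoters, chromosomes 1 and 8 had 60.3% and 56.6% higher regions. Their promoter shares were picked as the lowest and highest and rest on 41 and 29 regions, so no departure is read from them. The share of all CHG regions that touch a promoter was 20.1% on chromosome 6 and 11.3% in the unplaced sequence.

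The largest higher region was in the promoter of Cs5g28930, on chromosome 5 at 31168817 to 31168865, with a difference of 55.3 points over 10 cytosines in the authors' deposited table. Only 12 bp of it lie in that promoter, and the rest is in the downstream flank of the neighbouring gene. The whole promoter stood at 20.0% CHG under light drought against 5.36% under normal water, at 29.5% against 17.9% in CG, and at 5.50% against 0.96% in CHH. The second largest, in the promoter of Cs8g04740 on chromosome 8 at 2587540 to 2587691, differed by 51.0 points over 13 cytosines in the authors' deposited table. That promoter was at 42.3% against 24.3% in CHG and at 30.3% against 13.5% in CHH, but at 28.3% against 28.6% in CG. Its difference of 16.8 points in CHH was the largest of any gene hit. Both genes had a CG-methylated body with next to no CHG, at most 0.68% in either library. The files do not pair these identifiers with gene names.

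In the other direction the largest region touched the promoter, an exon and an intron of orange1.1t04065, on the unplaced sequence at 63039269 to 63039439, with -52.4 points in the authors' deposited table. There the promoter as a whole was not lower, at 86.0% CHG under light drought against 83.0%, but the body was, at 35.0% against 68.4% in CHG and 43.7% against 66.0% in CG. The next was a region of 35 bp with 13 cytosines in the promoter of Cs1g16000, on chromosome 1 at 19096068 to 19096102, with -49.8 points in the authors' deposited table. This promoter stood at 37.7% against 53.9% in CHG and 42.1% against 50.3% in CG, while CHH was at 15.7% against 13.5%. Its body held at most 0.31% CHG in either library. In these examples the promoter's CHG, CG and CHH differences had the same sign or opposite ones.

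A corrected p-value under 0.05 was listed for 2 of the promoter regions. The first, on chromosome 5 at 28021107 to 28021426, had 28 cytosines, and in the authors' deposited table its difference was 48.9 points with 0.00944 as corrected p. It spans promoter, exon and intron, and only 81 of its 320 bp lie in the promoter. The promoter was at 63.2% against 45.8% in CHG, at 18.9% against 11.3% in CHH, and at 88.6% against 90.9% in CG, so CG was near its ceiling in both libraries. Body CHG stood at 11.2% in drought against 0.68%, with body CG at 87.1% against 87.6%. The second, on chromosome 6 at 11154600 to 11154744, had 26 cytosines, and the authors' deposited table gives -29.8 points with 0.0324 as corrected p. It was 1 of 4 regions in the same promoter, all lower, which span 1379 bp. That promoter stood at 55.1% against 71.2% in CHG, 67.7% against 75.3% in CG and 6.80% against 5.39% in CHH.

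Regions close to each other mostly had the same sign. For 58 regions the nearest other CHG region was within 500 bp, and it had the same sign in 46 cases, or 79.3%. For 286 regions the nearest was more than 10 kb away, and the sign was the same in 162, or 56.6%. Of the 28 genes with more than 1 promoter region, 14 had only higher regions, 9 only lower ones and 5 had both. These last 5 genes belong to neither direction and are left out of the means by direction that follow.

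Over the whole promoter the CHG difference was much smaller than in the region. This comparison uses the same contrast as the choice of regions and serves only to check the direction and to show how local the differences were. The 308 genes with only higher regions stood at 45.1% under light drought against 38.7%, on average 6.39 points more (SD 5.89). The 155 genes with only lower regions stood at 46.5% against 50.1%, or -3.59 points (SD 5.63). Whole promoter and region shared their sign for 281 of 308 and 114 of 155 genes. Over genes with 1 region, the median was 18.02 points in the region and 5.46 points in the promoter for higher regions, and -17.1 and -2.98 points for lower ones. By a fixed size of 20 points, 7 promoters of genes hit were higher and 1 was lower, or 1.50% and 0.214%, while over all genes it was 2.08% higher and 1.2% lower.

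The promoters hit were of intermediate methylation. In CHG, averaged over both libraries, 111 of the 308 genes with higher regions, or 36.0%, were between 30 and 60%, and 53 of the 155 with lower regions, or 34.2%. Over all genes this class held 15.7%. Under 1% stood 2 genes with higher regions and 0 with lower ones, against 28.3% of all genes, and above 80% stood 9.09% and 12.3%, against 7.46% of all genes. A region needs CHG methylation in at least 1 library to differ, so the lack of unmethylated promoters is partly set by the choice. Without such promoters the other classes together hold a larger share, so the excess at 30 to 60% is partly set by the choice too. Under normal water, genes with lower regions had the higher mean level in all contexts, with CG at 57.9% against 48.3% for genes with higher regions, CHG at 50.1% against 38.7%, and CHH at 15.0% against 12.9%. For CHG this order is partly set by the choice of regions, and under light drought the CHG means were 46.5% and 45.1%.

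**Figure D2:**
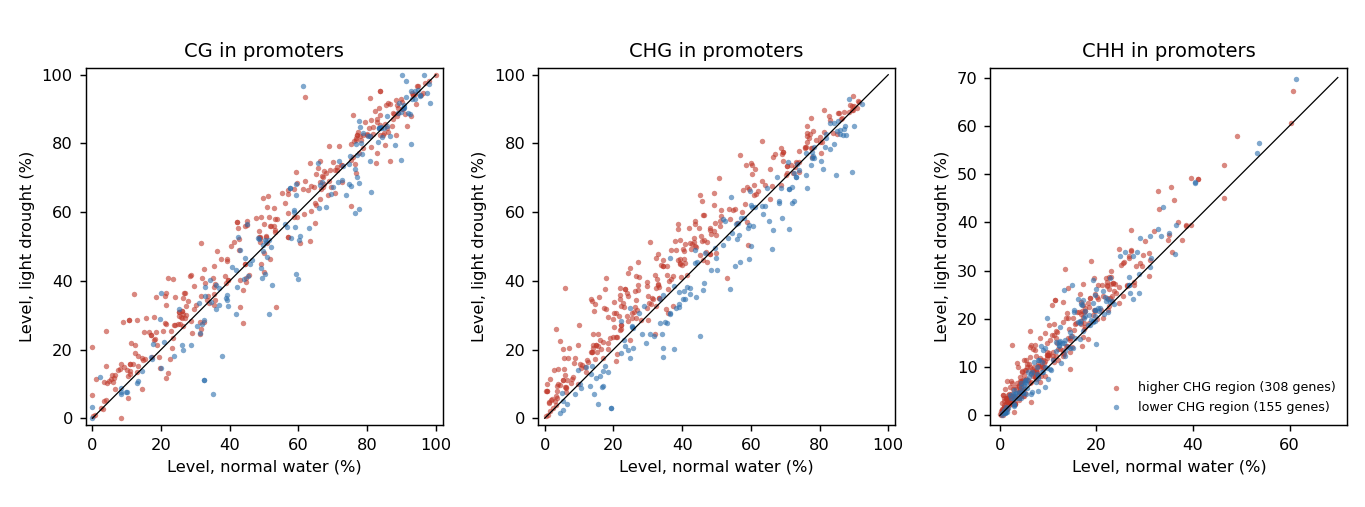
Promoter methylation level of each gene hit under normal water (x axis, %) and light drought (y axis, %) in CG, CHG and CHH, for the 308 genes with only higher CHG regions (red) and the 155 with only lower ones (blue); the line marks equal levels. In CHG the colours lie mostly on opposite sides of the line (281 of 308 red above, 114 of 155 blue below), as the choice of regions sets; in CG they are partly apart, and in CHH both lie mostly above it.

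CG methylation of the promoters hit leaned the way of the CHG region. Genes with higher CHG regions were at 51.8% CG under light drought against 48.3%, or 3.46 points more (SD 6.55, median 3.02). Genes with lower CHG regions were at 56.3% against 57.9%, or -1.65 points (SD 7.52, median -0.81). All genes differed by 1.41 points (SD 10.7, median 0.25). CG was higher in 230 of 308 genes with higher regions, or 74.7%, against 52.3% of all genes. It was lower in 90 of 155 genes with lower regions, or 58.1%, against 34.4% of all genes. Over promoters with an average CHG level of at least 10%, hit or not, CG was higher in 59.5% and lower in 38.7%. The mean CG difference of these 15108 genes was 1.81 points. The contrast with lower regions narrowed at high CG levels, where promoters above 80% differed by 1.48 points for higher and -0.25 points for lower regions.

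Large CG differences over whole promoters were few. By the fixed size of 20 points, 5 genes hit were higher and 5 lower, 1.07% each, next to 2.63% higher and 1.65% lower over all genes. Genes hit were thus not more often past this size than genes in general, whose SD was larger, at 10.7 against 7.26 points. Regions hold at least 10 CHG cytosines, and the part this limit plays in the comparison was not tested. The largest in the direction of the region was in a promoter on the unplaced sequence, with a CHG region at 85941899 to 85942014 that was higher by 35.2 points in the authors' deposited table. Its CG level was 93.5% in drought against 61.8%, and its CHH level 16.1% against 8.21%. A promoter on chromosome 1, with a CHG region at 17748829 to 17748941 higher by 38.3 points in the authors' deposited table, was at 36.1% against 12.2% in CG. There the body also differed, at 35.1% against 7.36% in CG and 16.1% against 0% in CHG. The reverse case was a promoter on the unplaced sequence with a CHG region of -30.2 points at 34321746 to 34321919 in the authors' deposited table, whose CG level was 96.8% against 61.3%. That region also reached a 5' UTR, an exon and an intron. The whole promoter held little CHG, at 2.50% against 5.24%, while body CHG was 22.3% against 38.6%. On chromosome 4, a promoter with a CHG region at 7003833 to 7003940, at -34.1 points in the authors' deposited table, stood at 11.3% against 32.4% in CG and 3.12% against 19.2% in CHG.

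CHH methylation of the promoters hit was higher under light drought whichever way the CHG region went. Genes with higher CHG regions were at 15.9% CHH under light drought against 12.9%, or 2.96 points more (SD 3.29, median 2.255). Genes with lower CHG regions were at 17.0% against 15.0%, or 1.95 points more (SD 3.06, median 1.43). The difference over all genes was 2.40 points (SD 5.39, median 0.95). In promoters with an average CHG level of at least 10%, hit or not, it was 3.74 points (15108 genes, SD 6.21, median 2.97). The mean of either group of genes hit lay below this value. CHH was higher in 262 of 308 genes with higher regions, or 85.1%, and in 115 of 155 with lower ones, or 74.2%. Over promoters of at least 10% CHG it was higher in 81.3%, and over all genes in 69.6%.

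In each of 4 classes of promoter CHG level, the mean CHH difference was smaller where the CHG region was lower. In promoters of 10 to 30% CHG it was 2.39 points with higher regions, 0.68 points with lower ones and 3.65 points over all genes of that class. In promoters of 30 to 60% CHG the values were 3.799, 2.45 and 4.34 points. Between 60 and 80% they were 3.24, 2.62 and 3.64 points. Above 80% CHG they were 2.77, 2.004 and 2.85 points. These means rest on 19 to 111 genes hit per class. By promoter CG level the gap was not seen in every class. At 60 to 80% CG the mean CHH difference was 3.64 points with higher and with lower regions (59 and 32 genes). It was 2.07 and 0.79 points at 10 to 30% CG, 3.56 and 1.71 points at 30 to 60%, and 3.04 and 1.81 points above 80%.

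By the fixed size of 10 points in CHH, 16 genes hit were higher and 0 lower, which is 3.42% and 0%, next to 6.36% higher and 0.729% lower over all genes. Of the 16, 13 had higher and 3 had lower CHG regions. The share of genes hit was thus below that of all genes, whose SD was also larger. After Cs8g04740, the largest were on chromosome 4. One promoter with a CHG region at 19023953 to 19024025 was at 46.4% CHH against 32.8%, and another with a CHG region at 7226672 to 7226915 at 31.9% against 19.0%. Their CHG regions were higher by 12.5 and 23.7 points in the authors' deposited table. Another 3 promoters had a lower CHG region and a CHH level at least 10 points higher. They stood at 25.9% against 13.2% (chromosome 1, region at 19018449 to 19018604), 27.0% against 14.9% (chromosome 3, at 5687731 to 5687819) and 20.1% against 9.84% (chromosome 8, at 10308254 to 10308370). No promoter with a higher CHG region was lower in CHH by 10 points. The lowest CHH difference of a gene hit was at a lower CHG region on the unplaced sequence at 23964209 to 23964280, with 14.7% against 19.8%.

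Across the 468 genes hit, the promoter differences in CHG and CG were correlated with Pearson's r of 0.573 and Spearman's rho of 0.558, and those in CHG and CHH with r of 0.353 and rho of 0.375. Over all 29073 genes the corresponding r was 0.371 and 0.356. These points share the same 2 libraries, genes are not independent replicates, and choosing regions of either sign spreads the CHG axis, so the values are descriptions. By sign, 65.6% of genes with higher regions were higher in both CG and CHH and 5.52% lower in both. Among genes with lower regions the most frequent pattern, in 42.6%, was lower CG with higher CHH, and 15.5% were lower in both. Over all genes, 42.7% were higher in both and 22.8% were lower in CG and higher in CHH.

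Regions of another context that lay over the promoter CHG regions mostly shared their sign in CG, and in CHH did so mainly where CHG was higher. The CHG regions outside promoters showed the same pattern. CG regions shared at least 1 bp with 38 of the 451 regions, or 8.43%, next to 8.15% of other CHG regions. They formed 39 pairs, of which 38 had the same sign, 24 higher and 14 lower. The exception was on chromosome 5 at 34703433 to 34703490, where a CHG region of -22.7 points and a CG region of 19.7 points shared only 6 bp, in the authors' deposited tables. CHH regions overlapped 87 promoter regions, or 19.3%, next to 12.8% of other CHG regions. Among these others the share was 16.8% outside gene features and 7.48% in exons or introns. Higher CHG regions were overlapped in 21.8% of cases in promoters and 20.4% outside features. With higher CHG regions, 72 of 75 CHH pairs had the same sign. With lower CHG regions, 11 of 24 did and 13 were opposite. These pairs shared a median of 27.5 bp, and of the 4 that shared at least 50% of the lower CHG region, 3 had the same sign. For the other CHG regions, 235 of 236 CG pairs had the same sign, as did 290 of 306 CHH pairs with higher and 62 of 116 with lower CHG regions. Of all CHH regions listed in promoters, 82.4% were higher, so a higher CHH region is the usual case at any promoter.

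Individual pairs showed both outcomes. In CG the largest lower pair was on chromosome 1, where a CHG region of -24.0 points at 19015033 to 19015164 held a CG region of -63.2 points in the authors' deposited tables. The CHG region in the promoter of Cs5g28930 lay inside a CHH region of 56.0 points at 31168802 to 31168879, for which the authors' deposited table lists 0.0450 as corrected p. In the authors' deposited table a CHH region of 38.6 points with 30 cytosines (corrected p 0.00507) covered 93 bp of the CHG region of Cs8g04740. A region on chromosome 7 at 4590734 to 4590854 was lower in all contexts, with -36.6 points in CHG, -48.4 points in CG and -38.7 points in CHH in the authors' deposited tables. It was 1 of 6 promoter regions that overlapped regions of both other contexts, 4 higher and 2 lower. Opposed were, for example, a CHG region of -18.8 points on chromosome 1 at 8642356 to 8642487 and a CHH region of 23.4 points that shared 58 bp with it, in the authors' deposited tables.

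**Figure D3:**
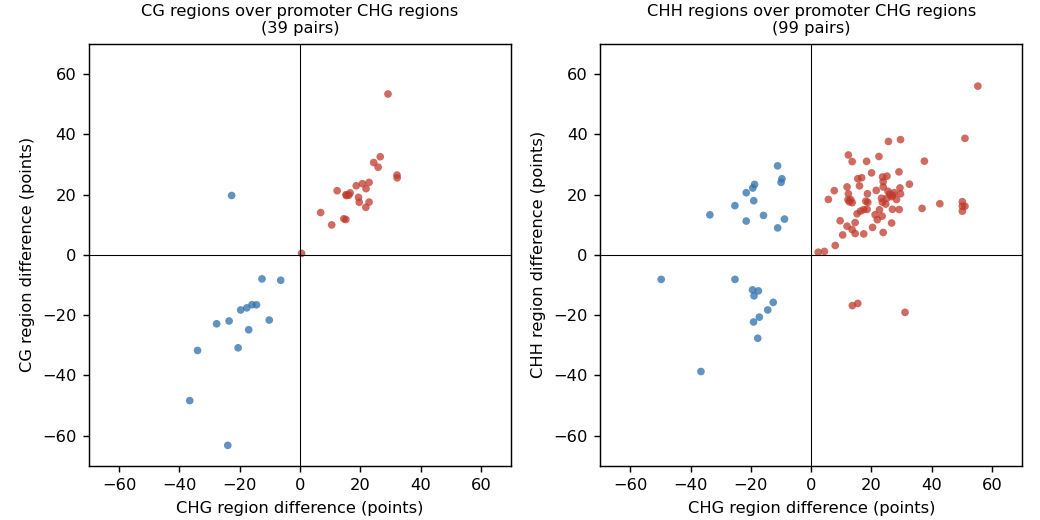
Difference of each promoter CHG region (x axis, percentage points) against the difference of a CG region (left, 39 pairs) or CHH region (right, 99 pairs) that shares at least 1 bp with it; red pairs have a higher and blue pairs a lower CHG region. CG pairs lie in the same-sign quadrants but for 1, while the 24 blue CHH pairs are split, with 13 above and 11 below 0.

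Regions of the other contexts were also counted over the whole promoters of the genes hit, with those that overlap the CHG region included. A CHH region was listed in the promoter of 272 of the 468 genes, or 58.1%, against 29.1% of all genes and 47.4% of genes with promoter CHG of at least 10%. Of the CHH regions in these promoters, 84.8% of 400 were higher at genes with higher CHG regions and 71.8% of 195 at genes with lower ones, counted once per gene. Over all genes the share was 82.5%. A CG region was listed in the promoter of 58 genes hit, or 12.4%, against 1.24% of all genes and 1.77% of those with promoter CHG of at least 10%. Of these CG regions, 34 of 38 were higher at genes with higher CHG regions, and 18 of 21 were lower at genes with lower ones, while over all genes 64.4% of 379 were higher. They include overlapping CG regions described above, so these counts are not separate evidence. All contexts come from the same reads, and the part that coverage plays in listing regions of several contexts at 1 promoter was not tested.

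Gene bodies were put in 3 states by their level averaged over both libraries. A body with at least 10% CHG was called CHG-methylated, the pattern of silenced or transposon-like genes. One with at least 10% CG but less CHG was called CG-only, the pattern of gene-body methylation, and the remainder unmethylated. Of the 468 genes hit, 183 were CHG-methylated, 158 CG-only and 127 unmethylated, or 39.1%, 33.8% and 27.1%. Over all genes the shares were 19.2%, 46.1% and 34.7%. Among genes with promoter CHG of at least 10%, 29.8% were CHG-methylated in the body, 39.7% CG-only and 30.5% unmethylated. Body CG was 0 in both libraries for 44 of the genes hit, or 9.40%, and for 12.3% of all genes. A level of 0 can also mean that no cytosine was covered, so the unmethylated shares may include bodies that were not measured.

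The shares of the states were close between the directions. CHG-methylated bodies made up 40.9% of the 308 genes with higher regions and 36.1% of the 155 with lower ones, and unmethylated bodies 25.3% and 29.7%. The exact (Clopper-Pearson) 95% intervals over genes, which cover counting of genes only, were 35.4 to 46.6% and 28.6 to 44.2% for the CHG-methylated share, and these intervals overlap. In the CHG-methylated state genes with higher regions had a mean body CHG of 55.4% under light drought against 53.8%, and in the other states it was at most 2.20%. The promoter CHH difference was largest for CG-only bodies, with 3.56 points at higher and 2.73 points at lower regions, next to 2.61 and 1.66 points for CHG-methylated and 2.74 and 1.39 points for unmethylated bodies. Over all genes the order was similar, with 2.65, 2.28 and 2.13 points for CG-only, CHG-methylated and unmethylated bodies. The promoter CG difference at lower regions was -3.44 points for unmethylated, -0.93 points for CG-only and -0.84 points for CHG-methylated bodies.

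Each body state held regions among the largest. Among CHG-methylated bodies the largest higher region was on chromosome 5 at 13009296 to 13009443, with 50.1 points in the authors' deposited table, where body CHG was 47.1% against 51.9%. Its promoter was at 43.9% against 24.7% in CHG and 9.13% against 4.58% in CHH. Among unmethylated bodies the largest higher region was on the unplaced sequence at 6799211 to 6799457, with 47.7 points in the authors' deposited table. Its promoter was nearly free of CHG under normal water, at 0.28%, and stood at 7.83% under light drought, while CG was 11.5% against 0.97% and CHH 0.88% against 0.23%. Among CG-only bodies the largest lower region was on chromosome 8 at 5531234 to 5531342, with -40.2 points in the authors' deposited table, in a promoter at 55.5% against 59.3% in CHG and 87.9% against 85.7% in CG.

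**Figure D4:**
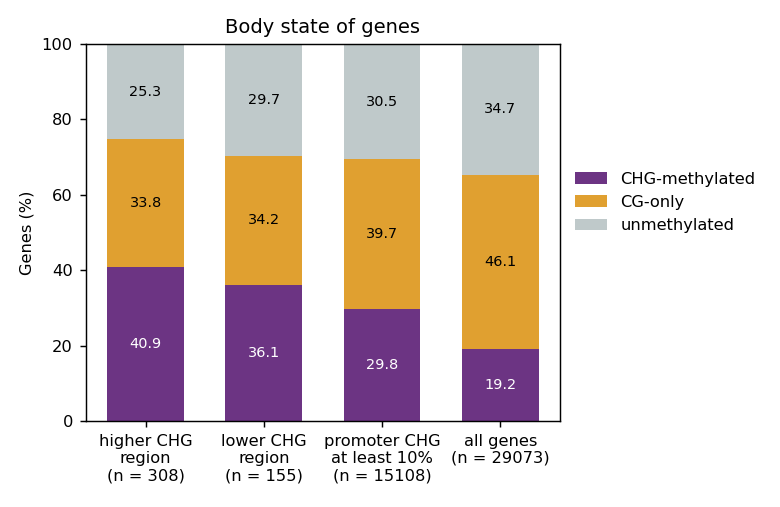
Share of genes (%) with a CHG-methylated, CG-only or unmethylated body, for genes with only higher promoter CHG regions, genes with only lower ones, all genes with promoter CHG of at least 10%, and all genes. CHG-methylated bodies make up 40.9% and 36.1% of the genes hit, 29.8% of genes with CHG-methylated promoters and 19.2% of all genes.

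Mean levels over whole gene bodies were higher under light drought for either direction of the promoter region. CHG regions listed in exons or introns include promoter regions that also reach an exon, so their lean is partly set by the choice. Body CG differed by 1.44 points (SD 8.81) at genes with higher regions and 0.71 points (SD 8.71) at genes with lower ones, and body CHG by 0.81 (SD 5.81) and 0.40 points (SD 9.68). The medians were 0.40 and 0.64 points in CG and 0.09 and 0.02 points in CHG. Over all genes the means were 0.84 points in CG and 0.19 in CHG. In exons alone, the means at genes with higher regions were 1.61 points in CG and 0.71 points in CHG. At genes with lower regions they were -0.69 and -0.11 points, with medians of 0. Body CHH was higher by 0.72 points (SD 3.10) and 0.63 points (SD 2.19), against 0.43 points over all genes. CHG regions in exons or introns were listed for 67 of the genes hit, or 14.3%, against 2.90% of all genes. At genes with higher promoter regions 49 of 66 such regions were higher, and at genes with lower ones 13 of 32, while over all genes 61.2% of 1111 were higher. CHH regions in exons or introns were listed for 70 genes hit, or 15.0%, against 8.84% of all genes, and CG regions there for 25, or 5.34%, against 2.91%. A region that spans promoter and exon counts in both places, so these are not separate events in all cases. Of the promoter regions, 40 reached an exon, 27 higher and 13 lower. For CHG, the share of genes and the lean are therefore partly the chosen regions counted again. Whether the lean holds without them was not tested.

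Few bodies differed by the fixed sizes. In CG 7 genes hit were higher by 20 points and 5 lower, or 1.50% and 1.07%, against 1.19% and 0.774% of all genes. In CHG 5 were higher and 5 lower, or 1.07% each, against 0.616% and 0.557% of all genes. Among genes with a level above 0 in both libraries, 2 were higher and 1 lower in CHG, and 1 was lower in CG. In CHH 4 were higher by 10 points and 1 lower, or 0.855% and 0.214%, against 0.757% and 0.368% of all genes. Some of the largest were bodies that jumped between extreme levels, as in 1 gene on chromosome 4 (region at 16269750 to 16269840) with 0% CG under light drought and 100% under normal water and 40% CHG in both. How many cytosines or reads lie behind such levels is not known.

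Mean levels of downstream flanks were higher under light drought in both groups and over all genes, with medians near 0 in CG and CHG. In CHH they differed by 1.85 points (SD 5.08) at genes with higher promoter regions and 1.77 points (SD 4.99) at genes with lower ones, and by 1.52 points over all genes. In CG the difference was 1.87 points (SD 11.9) and 3.58 points (SD 12.6), in CHG 1.23 (SD 8.27) and 0.99 points (SD 7.72). Over all genes the means were 1.71 points in CG and 0.86 in CHG. The medians for higher and lower regions were 0 and 0.16 points in CG, and 0 points for both in CHG. Past the fixed sizes, 19 genes hit were higher and 9 lower in CG, or 4.06% and 1.92%, against 3.67% and 1.61% of all genes. In CHG 10 were higher and 8 lower, or 2.14% and 1.71%, against 1.5% and 0.977%. In CHH 15 were higher and 3 lower, or 3.21% and 0.641%, against 3.81% and 0.626%, close to the shares of the genes hit.

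**Figure D5:**
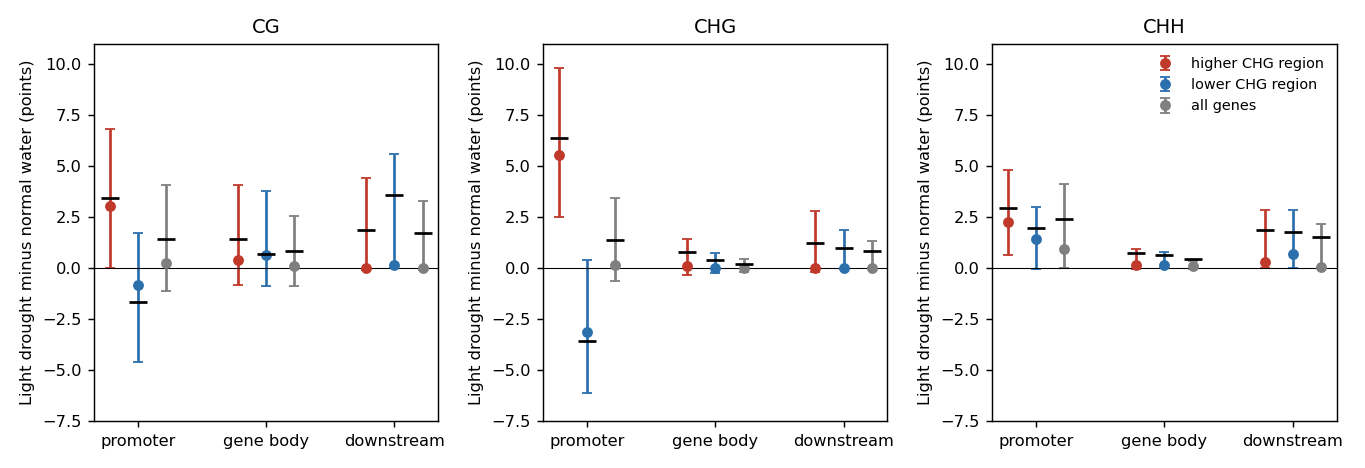
Difference in level (light drought minus normal water, percentage points) in promoters, gene bodies and downstream flanks for genes with only higher promoter CHG regions (red), only lower ones (blue) and all genes (grey), by context. Points are medians, bars span the quartiles over genes and black dashes are means; promoter CG separates by the sign of the CHG region (means 3.46 and -1.65 points), whereas promoter CHH is above 0 in both (2.96 and 1.95 points).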

How the data were processed

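Whole-genome bisulfite sequencing was done on 1 library each of normal water and light drought shoots. The authors deposited, per the file headers, methylation levels in percent per gene, feature and context, and tables of differentially methylated regions that give a difference in level (a signed score in percentage points) and p-values, raw and corrected. Bismark 0.20.1, bedtools 2.26.0 and SAMtools 1.4 appear in the submitters' processing notes, with no role stated. Genome build, annotation, promoter length, coverage and region caller were not given in the sources used here. Low coverage makes a level uncertain, and a level of 0 can also mean that no cytosine was covered. In the region tables, 6 columns of levels per group were not used because their names match neither library's labels. The direction was read from the order in the tables' name and checked against the labelled gene tables. Starts are printed counted from 1, since the deposited overlap equalled end minus start in 97.5% of CHG regions within 1 feature.

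Regions naming a promoter were taken, and genes were assigned by the authors' pairing of feature and gene. Regions were paired across contexts at 1 bp or more. Fixed sizes were 10 points for CHH and 20 points for CG or CHG. Named regions are the largest in each direction, those with a corrected p under 0.05, those with the largest promoter or body differences, and those that overlap both other contexts; further pairs and the region closest to 0 were chosen after their values were seen. The members, lists and rules were chosen with earlier results of these data known. Of 29073 gene identifiers, 0 matched the reference gene table, so at most 2 identifiers per direction are printed. Alternatives covered subsets of regions, other sizes, thresholds and overlaps. Steps were tested on simulated data. Python 3.11.15, numpy 2.4.6, pandas 2.3.3, scipy 1.17.1 and matplotlib 3.10.9 were used.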

Additional observations from a re-analysis of the deposited data

How the results depend on the processing

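No paired analysis was possible because there is a single library per condition; leaving a library out would allow no comparison. A share counted as moved outside its exact 95% interval over genes or regions, and other values beyond 1.5 times. Of 151 recalculated values, 88 stayed, 62 moved and the sign of 1 changed. The depth, which limits every level, is unknown. Restricting to genes hit from 1-gene regions, a setting chosen after the data were seen, moved none of its 5 values. The comparison set of genes with promoter CHG of at least 10% was also chosen after the data were seen; its body shares were 29.8% CHG-methylated, 39.7% CG-only and 30.5% unmethylated.

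With a corrected p under 0.05, 2 regions are left, 1 per direction, so each value is that of 1 region or gene: 50% higher, 48.9 and -29.8 points, a median length of 232.5 bp, a CHH difference of 7.64 points at the higher region, and CG differences of -2.37 points (from 3.46, the change of sign) and -7.54 points. Shares became 0% CHG-methylated and 50% each CG-only and unmethylated, 0% overlapping CG or CHH regions, and 0% and 100% (CG), 100% and 0% (CHH) of promoters with the sign of higher and lower regions. With regions of at least 30 points, medians were 34.3 and -34.0 points, the CG differences 6.73 and -3.10 points, and CHH at lower regions 1.28 points. The genes past the size became 2 (CHH higher), 3 (CG higher) and 2 (CG lower), all CG pairs (100%) had the same sign, and sign shares were 66.7% (CG, lower regions) and 97.1% (CHH, higher regions). Regions in promoters only left 3 genes past the size in higher CG. The median CG difference at lower regions was -0.81 points.

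With smaller sizes (10 points, or 5 in CHH), promoter counts were 98 higher and 1 lower in CHH and 50 and 20 in CG, and for bodies the CG counts were 32 and 14, the CHG counts 24 and 12, and the CHH counts 19 and 5. With 30 points, or 15 in CHH, they were 1 higher in CHH promoters, 2 and 0 in CG promoters, 3 and 2 in CG bodies, 2 higher in CHG bodies, and 2 and 0 in CHH bodies. No share over all genes was computed at these smaller and larger sizes, so the counts show only how they depend on the size. Without the unplaced sequence 4 bodies were higher in CG and 3 in CHG. Above 0 in both libraries, 1 body was lower in CG, and 2 higher and 1 lower in CHG. With body thresholds of 5% and 20%, 45.5% and 32.3% of genes hit were CHG-methylated (22.7% and 16.5% of all genes) and 21.4% and 36.1% unmethylated. With overlaps of at least 50%, 5.32% of regions overlapped a CG and 5.32% a CHH region, with 100% and 95.8% of pairs of the same sign. Of these CHH pairs, 20 of 20 with higher and 3 of 4 with lower CHG regions had the same sign. For lower CHG regions outside promoters it was 11 of 17. The cause of these shifts was not tested, except that fewer regions or another size are part of the settings themselves.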

Other observations

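Body states differed between the libraries for 49 of the 468 genes hit, or 10.47%, against 5.13% of all genes, when each library was classed on its own. Genes hit had more CHG-methylated bodies than all genes, 39.1% against 19.2%, and 40 of the chosen regions reach an exon. The comparison takes account of neither. The state differed for 9.74% of the 308 genes with higher promoter CHG regions and 11.6% of the 155 with lower ones. Among those with higher regions, 13 bodies were CHG-methylated only under light drought, 9 from CG-only and 4 from unmethylated. Another 5 were so only under normal water. Among genes with lower regions the corresponding numbers were 5 and 4. Over all 29073 genes, 204 bodies that were CG-only and 170 that were unmethylated under normal water were CHG-methylated under light drought. The other way, 113 and 115 differed. These counts come from groups of unlike size and were not turned into shares, so no difference between the groups is read from them. One body on the unplaced sequence, of a gene with 2 higher promoter regions (the larger at 62345788 to 62345884), was at 42.5% CHG and 58.2% CG under light drought against 8.37% and 17.5%, with promoter CHG at 64.98% against 45.3%.

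A few promoters held neighbouring regions of opposite sign. On chromosome 1 a region of -15.1 points at 10653580 to 10653721 and one of 16.1 points at 10653743 to 10653855 lay 21 bp apart in the authors' deposited table. On chromosome 2 regions of -27.6 and 23.8 points, at 9696540 to 9696595 and 9696679 to 9696753 in the authors' deposited table, lay in a promoter shared by neighbouring genes. In contrast, a promoter on chromosome 3 with 3 higher regions over 1523 bp was at 31.3% CHG under light drought against 14.2%, while CG was 96.8% against 94.8% and CHH 3.69% against 0.90%. In that promoter CHG differed with CG near its ceiling and little CHH.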
